A study of Mus musculus with 2 samples.

Results

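The region described here is a stretch of mouse chromosome 4 that lies upstream of Jun, at positions 94921073 to 95221072 in the mm9 build. It starts 200 kb and ends 500 kb from the Jun viewpoint of a circular chromosome conformation capture (4C-seq) experiment, on the side of higher coordinates. Its members are the ends of restriction fragments whose sequence occurs once in the genome and whose fragment position falls in this range. There were 1099 such ends, out of 496746 unique ends in the Jun library and 921359 in the whole series. The members were chosen by position and not by their reads.

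The study profiled the contacts of the Ccl2 and Jun promoters in primary bone marrow-derived macrophages of C57BL/6 mice, grown in L929-conditioned medium, untreated and on day 7 of differentiation. There was 1 library for each viewpoint, so no test between samples could be made, no p-value is given, and every interval below covers counting error within 1 library. The protocol mentions no molecular identifiers, so copies made by PCR count as separate reads, and reads of 1 end are not independent molecules. Intervals of read shares and read ratios treat each read as independent, so they are too narrow. The identity of the cells was not analysed here, because 4C-seq measures ligated genomic DNA and not expression.

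Jun encodes a subunit of AP-1, a transcription factor that is induced early after many stimuli and acts in macrophage activation. The gene is transcribed towards lower coordinates, so the stretch lies on its upstream side. 4C-seq fixes chromatin, cuts it with a restriction enzyme and joins ends that lie close together. Inverse PCR from the viewpoint then recovers its ligation partners, so the reads at an end reflect how often it was joined to the viewpoint and how well the product was amplified. Ligation frequency usually falls with distance along the chromosome, and contacts are more frequent within a chromatin domain than across its borders.

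In the gene order of the GRCm38.p6 annotation the next protein-coding gene upstream of Jun is Fggy, a carbohydrate kinase gene. Between Jun and Fggy that annotation lists 7 non-coding genes, of which 6 are long non-coding RNAs (Junos, Gm12708, Gm32240, Gm830, Gm12707 and Gm40206) and 1 is a small nuclear RNA (Gm25004). By this gene order the stretch was taken as intergenic, but only with respect to protein-coding genes. Which of the non-coding genes lie inside it, and whether it ends before Fggy, were not analysed here. The annotation is of another build than the files.

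The promoter of Jun is printed because the labels place the viewpoint at the start site of this gene. It is the RefSeq promoter of GRCm38.p6, chr4:95052173-95052472 on the minus strand, 300 bases read 5′ to 3′ along the gene. Capitals mark the 50 bases after the annotated start and lower case the 250 bases before it.
Jun promoter: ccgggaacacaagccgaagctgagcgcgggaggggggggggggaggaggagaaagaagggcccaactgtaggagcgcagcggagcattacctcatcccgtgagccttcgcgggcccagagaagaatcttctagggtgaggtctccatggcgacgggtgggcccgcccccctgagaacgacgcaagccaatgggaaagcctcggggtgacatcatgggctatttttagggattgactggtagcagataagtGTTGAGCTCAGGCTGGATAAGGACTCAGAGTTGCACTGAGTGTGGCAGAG
These letters hold no GATC, the site of DpnII, the first enzyme, on either strand. Of 32851 RefSeq promoters of the same length, 48.0% hold at least 1. The fragment with the most reads, which sets the zero of all distances here, is 138 bp long and centred at position 94721073. It is shorter than the uncut promoter window, so it lies outside the printed letters, and distances are from that fragment and not from the start site.

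The Jun library held 1098887 reads on unique ends more than 5 kb from the viewpoint. The stretch carried 182624 of them, which is 16.6% (exact binomial 95% interval 16.5 to 16.7%). The share was 11.1% with nothing left out around the viewpoint and 10.4% by the number of covered ends instead of reads. A read was present on 986 of its 1099 ends, or 89.7% (87.8 to 91.5%). Over all unique ends of chromosome 4 more than 5 kb from the viewpoint, the share with a read was 1.91%, and most of those ends lie far beyond the stretch.

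The signal was spread over many ends. The median end of the stretch had 77 reads, with quartiles of 16 and 248 reads, and the highest had 1286. At least 10 reads were present on 885 ends (80.5%) and at least 100 reads on 487 ends (44.3%). It took the 154 strongest ends to reach 50% of the reads, and the 10 strongest held 5.96%. The strongest single end held 0.704%.

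At the same distance on the other side of Jun the profile was almost empty. The mirror range, 200 to 500 kb towards lower coordinates (positions 94221074 to 94521073), held 6137 reads on 934 unique ends, and 136 of these ends (14.6%, 12.4 to 17.0%) had a read. The stretch therefore had 29.8 times the reads of its mirror (interval from counting error 29.0 to 30.5). Per unique end the ratio was 25.3, since ends were 1.18 times as dense per kb on the higher side. Counted by ends with a read, which ignores how many reads each had, the ratio was 7.25. That count has a ceiling, since 89.7% of the ends of the stretch already had a read. In the mirror 5 ends held 15.9% of the reads, against 3.24% in the stretch, and without the 5 strongest ends of either range the ratio was 34.2.

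Within the stretch, the contrast between the sides narrowed with distance. Over a wider range it did not change steadily. Reads per end on the higher and lower side were 706.5 and 204 at 20 to 30 kb, and 148 and 0 at 700 to 710 kb. From 200 to 300 kb the stretch had 73441 reads and its mirror 1016, a ratio of 72.3 (67.9 to 77.0). From 300 to 400 kb the values were 61228 and 1177, a ratio of 52.0 (49.1 to 55.2). From 400 to 500 kb they were 47955 and 3944, a ratio of 12.2 (11.8 to 12.6). Both sides contributed to the narrowing. Reads per end in the stretch went from 208 to 138 between the nearest and the farthest 100 kb, while those of the mirror went from 3.48 to 11.7. The share of mirror ends with a read went from 9.25% (6.18 to 13.2%) to 22.0% (17.7 to 26.8%) over the same distances.

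For scale, the range 200 to 500 kb of the Ccl2 library, seen from its own viewpoint on chromosome 11, was sparsely covered. A read was present on 11.2% of its lower-side ends (9.55 to 12.9%) and on 11.8% of its higher-side ends (10.1 to 13.7%). Its reads per unique end were 8.65 and 8.32. The stretch upstream of Jun stood at 166 reads per end, and the mirror of the stretch at 6.57. The libraries differ in depth (901507 reads for Ccl2 by the same count), and they are single libraries of different viewpoints.

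**Figure D1:**
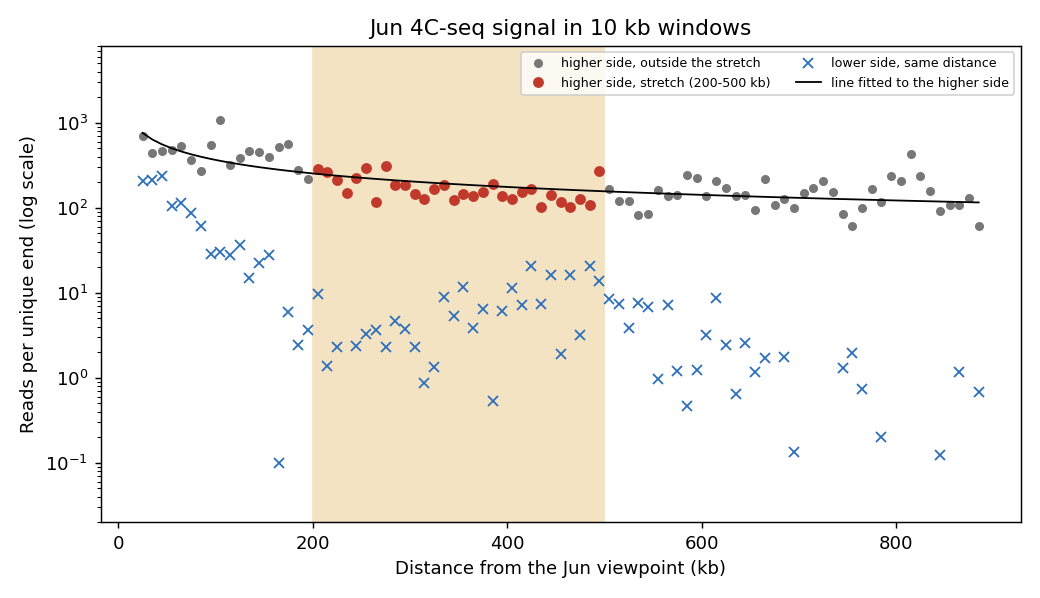
Reads per unique end (log scale) in 10 kb windows against distance from the Jun viewpoint in kb. Red points are the 30 windows of the stretch (102 to 306 reads per end), grey points the other higher-side windows from 20 to 890 kb, blue crosses the lower-side windows with a read at the same distances, and the black line is the fit to all higher-side windows.

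Seen along the higher side, the stretch lay on a shallow slope. The nearer flank, from 20 to 200 kb, had 458 reads per end and a read on 97.0% of 699 ends. The farther flank, from 500 to 800 kb, had 146 reads per end and a read on 85.6% of 1203 ends (83.5 to 87.6%). The stretch, at 166 reads per end, stood at 0.363 times the level of the nearer flank (counting interval 0.361 to 0.365) and 1.14 times that of the farther flank (1.13 to 1.15). Its median of 77 reads compared with 65 in the farther flank and 234 in the nearer one. The nearer flank was itself sloped, and there was no fall across its border with the stretch. The last windows before the border, at 180 to 190 and 190 to 200 kb, had 279 and 215 reads per end, and the first windows after it had 285 and 263. The first of these, at 200 to 210 kb, rests on only 4 unique ends. A fall lay just before these windows, since those at 160 to 170 and 170 to 180 kb had 521 and 555 reads per end.

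Within the stretch the level fell outwards. The nearest 100 kb (94921073 to 95021072) had 208 reads per end, the middle 100 kb (95021073 to 95121072) 153 and the farthest 100 kb (95121073 to 95221072) 138. The farthest part had 0.664 times the reads per end of the nearest (0.657 to 0.672). By the 3′ or the 5′ value alone the ratio was 0.783 and 0.556, both outside that interval. The share of ends with a read was 94.1% (91.1 to 96.3%), 89.2% (85.8 to 92.1%) and 85.9% (81.8 to 89.4%) in the same order. The intervals of the nearest and the farthest part do not overlap, and that of the middle part overlaps both. They treat the ends as independent, so this is no test of a difference between the parts.

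In 10 kb windows, the 30 windows of the stretch ranged from 102 to 306 reads per end with a median of 149.6, a span of 2.99 times from the lowest to the highest. A read was present on 79.1 to 100% of the ends of a window, with a median of 89.5%. Every end had a read in 3 windows, and 2 windows lay under 80%. In the mirror the highest window, 420 to 430 kb, reached 20.4 reads per end, below the lowest window of the stretch, and 1 window had no read. The 30 windows of the stretch thus did not overlap with those at the same distances on the lower side. A contrast at equal distance was not particular to the stretch. Each of the 87 higher-side windows from 20 to 890 kb stood above the lower-side window at its own distance. At 500 to 510 kb, for example, the values were 167 and 8.34 reads per end. As sets, the windows of the nearer flank and of its mirror did overlap. Reads per end were 215 at 190 to 200 kb on the higher side and 234 at 40 to 50 kb on the lower side.

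**Figure D2:**
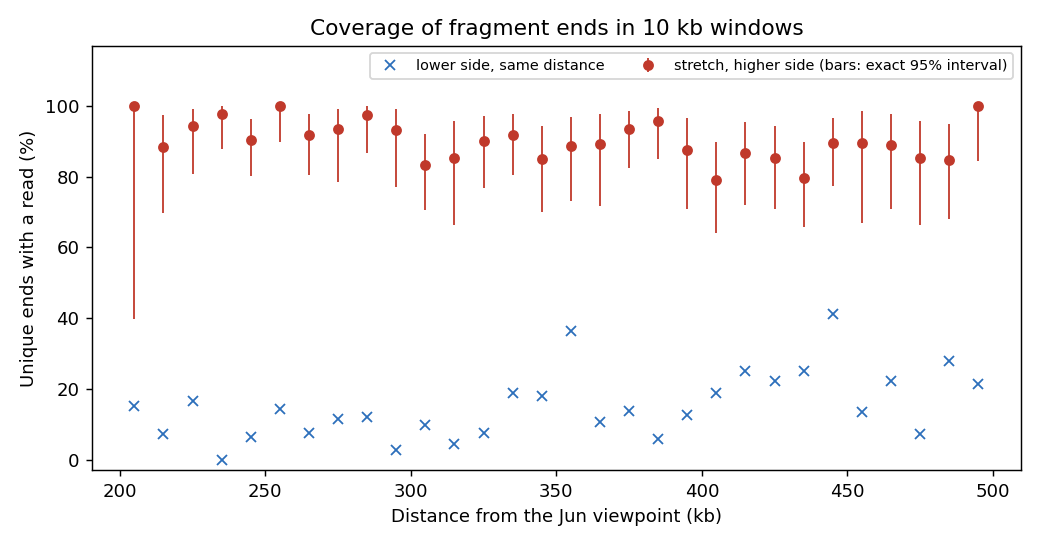
Percentage of unique ends with a read in each 10 kb window against distance in kb, for the stretch (red points, bars are exact binomial 95% intervals) and for the lower side at the same distances (blue crosses). Every window of the stretch stands at 79.1% or more, and the lower side reaches at most 41.2%.

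The window with the most reads per end lay at 270 to 280 kb (94991073 to 95001072), with 9479 reads on 31 ends, or 306 reads per end. The window at 250 to 260 kb (94971073 to 94981072) followed with 9874 reads on 34 ends, or 290 reads per end, and a read on each of them. The window at 200 to 210 kb (94921073 to 94931072) had 285 reads per end, but it held only 4 unique ends, and 1 of them gave 52.2% of its 1139 reads. All 3 of these windows lie in the nearest 100 kb.

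The 3 windows with the fewest reads per end all lie in the farthest 100 kb. The window at 460 to 470 kb (95181073 to 95191072) had 102 reads per end on 27 ends, of which 24 had a read. That at 430 to 440 kb (95151073 to 95161072) had 103 reads per end on 49 ends, with 39 covered. That at 480 to 490 kb (95201073 to 95211072) had 109 reads per end on 33 ends, with 28 covered. None of them was empty of reads, since 79.6 to 88.9% of their unique ends had a read.

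To ask whether a window stood out at its distance, a straight line of log10 reads per end on log10 distance was fitted to the 87 higher-side windows from 20 to 890 kb. Its slope was -0.53, and it ran from 253 reads per end at 200 kb to 156 at 500 kb. No window of the stretch reached 2 times the line or more, against 3 of all 87 windows (3.45%), and none stood at 0.5 times the line or less, against 1 of 87 (1.15%). The stretch ranged from 0.53 to 1.70 times the line. Its median was 0.837 against 0.945 over all 87 windows, and 24 of its 30 windows lay below the line. By these limits the stretch held no raised and no lowered window, but both counts depended on the setting. With a line fitted to the stretch alone, or a running median of 9 windows, 1 window passed 2 times. With the 3′ or the 5′ value alone, with the grid moved by 5 kb, or with only fragments that hold a site of the second enzyme, 1 window stood at 0.5 times the line or less.

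The window lowest against the line, 260 to 270 kb (94981073 to 94991072), lies in the nearest 100 kb between the windows with the most reads per end. It held 5654 reads on 49 ends, or 115 reads per end, which is 0.53 times the line, and 45 of its ends had a read. The window highest against the line was the last one, 490 to 500 kb (95211073 to 95221072), and both are named here after their values were seen. The last window held 5876 reads on 22 ends, all with a read, or 267 reads per end. Its neighbour at 480 to 490 kb had 109 reads per end and the next one outwards, at 500 to 510 kb, had 167. In it 72.7% of ends belonged to fragments with a site of the second enzyme. On those ends alone the window stood at 1.35 times a line fitted to such ends. Whether the share of such ends bears on its level was not tested.

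The 4C protocol cuts the ligated DNA with a second enzyme before circles are closed for PCR. An end whose fragment holds a site of that enzyme gives a circle of defined length, while a fragment without one, often called blind, must be recovered whole. In the stretch, 525 ends belonged to fragments with such a site and 574 to fragments without one. Ends with a site had a median of 235 reads and ends without one a median of 28.5. Reads per end were 280 and 61.7, a ratio of 4.54, and the ends with a site carried 80.6% of the reads of the stretch. A read was present on 98.3% of ends with a site (96.8 to 99.2%) and on 81.9% of those without (78.5 to 84.9%). The same ratio was 4.96 in the farther flank and 4.79 in the nearer one, so this dependence was present on both sides of the stretch too.

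Among ends with a site, reads followed the run from the end to that site. Which run belongs to which end was itself inferred from reads of this library outside the stretch. In the stretch, reads and run had a Spearman correlation of -0.32 as paired and 0.09 with the runs swapped. Ends with a run under 50 bp had a median of 141 reads (77 ends), and those with 50 to 100 bp had 302 (97 ends). Ends with 100 to 200 bp had the highest median, 437 reads (125 ends), and all of them had a read. From 200 to 400 bp the median was 274 (128 ends), and from 400 bp upwards it fell to 29 (98 ends). The ends with a long run were still nearly all covered, with a read on 93 of 98.

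Among ends without a site, reads followed the length of the whole fragment. Fragments under 50 bp had a median of 10 reads on 71 ends, and a read was present on 59.2% of these ends (46.8 to 70.7%). For fragments of 50 to 100, 100 to 200 and 200 to 300 bp the medians were 51.5, 49 and 55.5 reads. From 300 to 500 bp the median was 19, and from 500 bp upwards it was 5 on 53 ends. Both kinds of fragment therefore gave most reads at intermediate lengths.

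**Figure D3:**
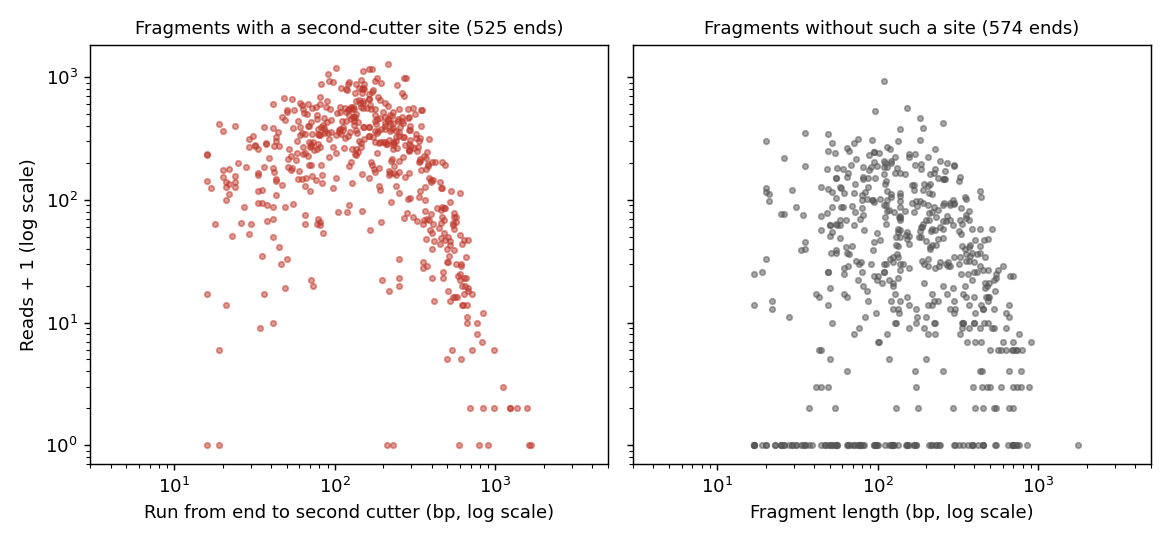
Reads plus 1 of each unique end of the stretch (log scale), against the run from the end to the second cutter for 525 ends with such a site (left) and against fragment length for 574 ends without one (right), both in bp on log scales. Medians rise to 437 reads at runs of 100 to 200 bp and are 29 from 400 bp upwards, and ends on the right are lower, with a median of 28.5.

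The strongest ends lay on fragments with a site, the kind with more reads in these same data, so this is no independent finding. The end with the most reads belonged to the fragment centred at 95021201 (300.1 kb), had 1286 reads and lay 213 bp from the second cutter. The next had 1193 reads at 95108129 (387.1 kb), with a run of 101 bp. The other named ends had 1163 reads at 94936465 (215.4 kb, 162 bp), 1161 at 94970737 (249.7 kb, 171 bp) and 1113 at 94995121 (274.0 kb, 149 bp). All 5 lie on fragments with a site, against 47.8% of all ends of the stretch, and each of the 5 holds 0.609 to 0.704% of its reads. The opposite end of the same fragment had 518, 402, 137 and 39 reads for the fragments at 95021201, 95108129, 94936465 and 94995121. These ends were chosen as the highest, and 2 of their 4 opposite ends were above the upper quartile of 248 reads.

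The ends of a fragment were partly alike over the stretch at large. Both ends were unique in 481 fragments, and their reads had a Spearman correlation of 0.40 across fragments, a description only, since both ends share a position and a library. Both ends had a read in 400 of these fragments, 1 end in 65 and neither in 16.

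Ends without any read were scattered and mostly on fragments without a site. Of the 113 such ends, 104 belonged to fragments without a site. Their median fragment length was 99 bp, against 323 bp for ends with a read, and 31 of the 74 ends on fragments under 50 bp had none. Neighbouring unique ends without a read formed 91 runs, of which 72 were single ends and the longest were 3 ends. The 3 runs of that length lay at 95023249 to 95023601, 95152737 to 95152881 and 95166993 to 95167105, and all their ends were on fragments without a site. No longer run of unique ends without a read was found. Parts of the stretch without unique ends could not be judged for an interruption of contact. An example several kb long lay across the border between the windows at 450 to 460 and 460 to 470 kb. The window at 200 to 210 kb held only 4 unique ends.

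The change outwards was also taken within kinds of end. For ends with a site and a run of 50 to 400 bp, the median was 400.5 reads in the nearest 100 kb (118 ends), 326 in the middle (119) and 293 in the farthest (113). Within that class, ends with a run of 100 to 200 bp had medians of 560.5, 391.5 and 362 reads, and those with 200 to 400 bp had 277, 285 and 257.5, with no fall from the nearest to the middle part. Quartiles of the whole class were wide, from 227 to 596 reads in the nearest and from 165 to 438 in the farthest part, so the ends of the 3 parts overlapped broadly. For all ends with a site, the ratio of reads per end between the farthest and the nearest part was 0.662, against 0.664 for all ends. On fragments without a site the share of ends with a read went from 89.5% (84.1 to 93.6%) through 81.8% (76.1 to 86.7%) to 74.0% (66.8 to 80.4%). On fragments with a site it was 98.8%, 98.3% and 97.7%, with overlapping intervals.

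The order of windows moved with the kind of ends they held. The share of ends on fragments with a site ranged from 25.9% in the window at 300 to 310 kb to 3 of 4 ends in that at 200 to 210 kb. Across the 30 windows it had a Spearman correlation of 0.50 and a Pearson correlation of 0.57 with reads per end, given as a description with no test, since the windows share 1 library. The window at 300 to 310 kb was at rank 17 of 30 by reads per end (147), but at rank 3 when only ends with a site were counted (423). When the reads of each end were divided by the mean of its length class over the higher side, the window at 270 to 280 kb kept rank 1 and that at 250 to 260 kb was at rank 3, while that at 200 to 210 kb moved to rank 10. The window at 490 to 500 kb then stood at 1.36 times the line, against 1.70 by plain reads per end. Of the 3 windows with the fewest reads per end, that at 460 to 470 kb moved from rank 30 to rank 21 by the same measure. Those at 430 to 440 and 480 to 490 kb were at ranks 29 and 26. By that measure the 30 windows lay between 0.50 and 1.36 times the line, with that at 450 to 460 kb the lowest.

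**Figure D4:**
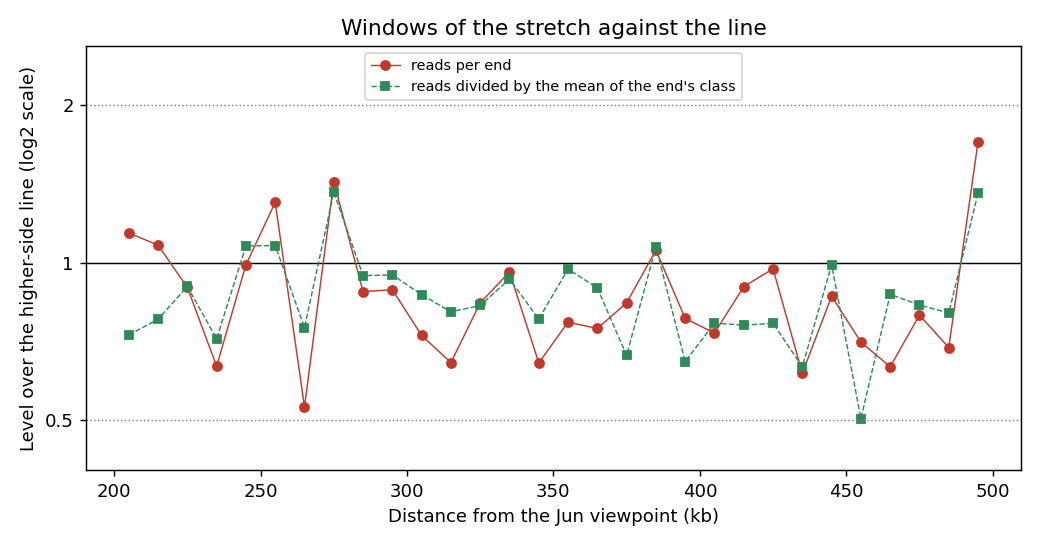
Level of the 30 windows of the stretch over the higher-side line (log2 scale) against distance in kb, for reads per end (red circles) and for reads divided by the mean of the end's length class (green squares, with a line fitted to those values). Dotted lines mark 0.5 and 2 times the line, and both series stay between them, from 0.53 to 1.70 and from 0.50 to 1.36.

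The sides were also set side by side within each kind of end. Ends on fragments with a site made up 47.8% of the stretch and 45.7% of the mirror. For these ends alone a read was present on 98.3% in the stretch and on 22.2% in the mirror (18.4 to 26.5%), with 280 and 12.2 reads per end. For ends without a site the shares were 81.9% and 8.09% (5.87 to 10.8%), with 61.7 and 1.84 reads per end. The ratio of reads between the stretch and its mirror was 28.3 for ends with a site and 29.8 for all ends. Each of the deposited end values, the one for the 3′ and the one for the 5′ end of a fragment, also gave the contrast by itself, with ratios of 24.7 and 37.3.

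Averaged over the whole stretch these end values gave much the same level, but they differed in how far it fell outwards. The ratio of reads per end between the farthest and the nearest 100 kb was 0.783 by the 3′ and 0.556 by the 5′ value. The 559 unique 3′ ends had 163 reads per end and a median of 80, and the 540 unique 5′ ends had 169 reads per end and a median of 76.5. A read was present on 90.7% and 88.7% of them. They come from the same ligation and PCR, so this is a comparison within 1 library and not a replicate.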

How the data were processed

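4C-seq libraries of untreated mouse macrophages, 1 per viewpoint, were analysed. Per the labels' protocols, chromatin was fixed with 2% formaldehyde for 10 min and cut with DpnII and then with an enzyme written Csp61, both 4 bp cutters. 8 PCRs were pooled. The submitters' processing notes name mm9 as the build. No source used here gives the aligner or how reads were weighted. The deposited values are estimated counts of reads per fragment end, not scaled to depth. Of values from 0.05 to 10 on unique Jun ends, 72.8% lie within 0.1 of a whole number. Per the file headers, other columns hold each end's multiplicity and fragment lengths, under names shifted by 1 column.

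The estimated counts were rounded. Ends with multiplicity 1 were used, and those within 5 kb of the viewpoint were left out of library totals. The viewpoint is the fragment with the most reads. Of 1534 ends in the stretch, 1099 were unique, 122 had several copies and 313 had no value. A fragment counts as holding a site of the second enzyme where the run to that site is shorter than the fragment. The 3′ value was paired with the run from the high-coordinate end, because reads followed that length on the higher side outside the stretch (Spearman -0.34 paired, 0.06 swapped, 1081 ends). Intervals are exact binomial (Clopper-Pearson), and ratios use the conditional binomial. The named windows are the 3 with the most and the 3 with the fewest reads per end. The named ends are the 5 with the most reads and the named gaps the 3 longest runs without a read. The region and settings were chosen with earlier results of these data known. The window code was tested on simulated data. Python 3.11.15, pandas 2.3.3 and scipy 1.17.1 were used.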

Additional observations from a re-analysis of the deposited data

Results flagged for a closer look

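Ends with several copies in the genome, which were left out of the main values and enter only 1 alternative, carried reads in the stretch: 114 of 122 such ends had a read, or 93.4% (exact interval 87.5 to 97.1%), with 24510 reads and a median of 120 per end. They were noted because they lie outside the measurement used and stand above what a count of 0 allows. In the mirror range on the lower side 15.7% of 166 multi-copy ends had a read (10.5 to 22.1%), and beyond 1000 kb 2.84% of 98794. The first 20 kb of the stretch held 35 of the 122 ends, with a median of 26 copies. No source used here gives how reads were shared out among copies, so a read at such an end cannot be assigned to the stretch.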

How the results depend on the processing

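No alternative run turned a ratio to the other side of 1, and the ratio to the mirror ranged from 7.25 to 37.3. The percentage of ends with a read was 86.8% at a minimum of 3 reads, 80.5% at 10 reads, 93.7% without fragments under 100 bp and 98.3% on fragments with a site of the second enzyme. The stretch held 10.4% of the library when ends with a read were counted, 18.5% with reads capped at the 95th percentile, 16.5% and 16.7% by the 3′ or 5′ value alone, 17.3% with multi-copy ends, 16.4% without fragments under 100 bp, and 17.8% or 11.1% with 20 kb or nothing left out around the viewpoint. The ratio to the mirror was 7.25 by ends with a read, 28.0 capped, 24.7 and 37.3 by the 3′ or 5′ value, 29.0 without short fragments, 28.3 with a site and 34.2 without the 5 top ends of either side. The ratio of the farthest to the nearest 100 kb was 0.913 by ends with a read, 0.722 capped, 0.783 and 0.556 by the 3′ or 5′ value, 0.641 without short fragments, 0.653 with multi-copy ends and 0.637 by length class. Ratios counted by ends with a read are limited by a ceiling, as most ends of the stretch had a read. The count of windows at 2 times the line or more went from 0 to 1 with a line fitted to the stretch or a running median. That at 0.5 times or less went from 0 to 1 by the 3′ or 5′ value alone, with the grid moved by 5 kb, and on fragments with a site. The cause of these shifts was not tested. The 6 named windows kept their side of the median window in all 8 alternatives run on them. They were picked as the extremes of these same reads, so this is no independent support. Counted by ends with a read, some stood close to the median window. The log2 ratio to it was then 0.063 at 270 to 280 kb and -0.01 at 460 to 470 kb. Fragments with a site, length classes and the top ends were alternatives chosen after seeing the data. What depth limits was not tested.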
